A study of Rattus norvegicus with 12 samples.

Results

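ND7/23 cells that received menthol and Wnt3a together were compared with unstimulated control cells, a comparison of 3 libraries with 3 libraries. ND7/23 is a hybrid line made by fusing rat dorsal root ganglion neurons with mouse N18Tg2 neuroblastoma cells. The compared genes were those whose mean over the 12 libraries of the series reached 0.5 FPKM (fragments per kilobase of gene and of mapped fragments in the library), which kept 11451 of 21556 genes. The gene just inside this limit had a mean of 0.5002 FPKM and the gene just outside 0.4995 FPKM. The control cells received neither stimulus, and the cells with both stimuli received 100 μM menthol and 100 ng/ml Wnt3a protein. The remaining 6 libraries came from cells given 100 μM menthol alone or 100 ng/ml Wnt3a alone, 3 for each, and every group was harvested at 6 h. According to the methods, cells were stimulated in DMEM with penicillin and streptomycin. All libraries came from the same line, and nothing in the labels says whether the 3 libraries of a group came from separate cultures, so the p-values measure the spread between these samples, which may be technical.

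Wnt3a is a secreted ligand that binds Frizzled receptors and the co-receptors Lrp5 and Lrp6. Binding halts the destruction complex, which contains Axin1, Apc and Gsk3b, so that β-catenin accumulates and acts with TCF/LEF factors in the nucleus. Transcription of Axin2, which encodes another scaffold of that complex, is a widely used readout of this branch and a negative feedback on it. Menthol is a cooling compound and an agonist of TRPM8, a cation channel of cold-sensing neurons.

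The reads on genes ranged from 36914010 to 38836269 per library, and 16983 to 17386 genes were above 0. The median log2 level of the tested genes lay between 3.371 and 3.403 in the 12 libraries, with the highest value in replicate 3 of the cells given both stimuli. On average the libraries with both stimuli were 0.0137 log2 units above the control libraries by this median. Replicates of the same group differed by more than counting error in 12 of 12 pairs, with a chi-square per degree of freedom of 3.63 to 8.39.

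With menthol and Wnt3a together, 36 genes rose and 59 fell against control at an adjusted p under 0.05 (limma, Benjamini-Hochberg adjustment over all genes tested). These were 0.314% and 0.515% of the genes tested, or 0.83% in either direction. The changes were small. The 36 genes that rose were 10.5 to 66.2% higher, with a median of 16.7%, and the 59 that fell were 7.91 to 40.5% lower, with a median of 15.3%. No called gene passed the 2-fold limit used in the study (0 genes, 0%, by limma on FPKM and by limma voom on the recovered reads). Estimates beyond 2-fold were found in 4 genes at low levels, 2 of them with an unadjusted p under 0.05. The median standard error of a log2 fold change was 0.0614, which is 4.35% of the level, and the smallest change called was 0.119 on the log2 scale. An unadjusted p under 0.05 was reached by 1546 genes (13.5%). Limma voom, a model of the read counts recovered from the FPKM values, called 99 genes higher and 162 lower, including 89 of the 95. When each library was first centred on its median, 23 genes were called higher and 76 lower, so the split between the directions depended on this scaling.

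**Figure D1:**
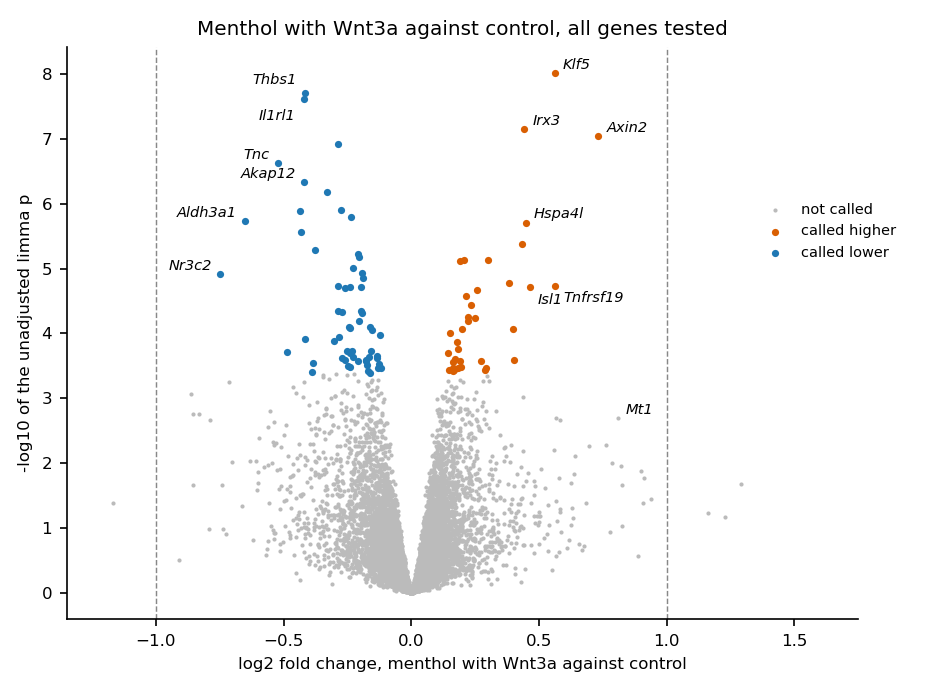
Each point is a gene tested in menthol with Wnt3a against control, with the log2 fold change on the horizontal axis and −log10 of the unadjusted limma p on the vertical axis. Orange points are the 36 genes called higher and blue points the 59 called lower. All coloured points lie between the dashed lines at 2-fold.

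The called genes had higher median levels than all genes tested, though some lay low. Their mean over the 12 libraries ranged from 6.34 to 346 FPKM in the genes that rose, with a median of 26.3 FPKM, and from 1.35 to 2760 FPKM in the genes that fell, with a median of 37.2 FPKM. The median over all genes tested was 10.4 FPKM. Protein-coding genes made up 35 of the 36 that rose and 59 of the 59 that fell. The exception was the non-coding gene Crnde. In each of the 95 called genes, the 3 libraries with both stimuli lay outside the range of the 3 control libraries. Among all genes tested, the groups did not overlap in 1201 genes that were higher (10.5%) and 1143 that were lower (9.98%).

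Axin2 rose more than any other called gene. Its level was 5.07, 5.07 and 4.72 FPKM in the control libraries and 7.83, 8.71 and 8.37 FPKM with both stimuli. The groups did not overlap, and the log2 fold change was 0.73 (SE 0.0718, adjusted p = 0.000208, limma), a rise of 66.2%. With menthol alone, Axin2 stood at 4.55, 5.19 and 5.28 FPKM, across the control range. With Wnt3a alone, its 6.56, 7.31 and 7.45 FPKM were above control and below each of the libraries with both stimuli. Cells with both stimuli exceeded those with menthol alone by 0.72 on the log2 scale (adjusted p = 0.000645, limma), and their difference from Wnt3a alone, 0.22, did not pass the test (adjusted p = 0.2, limma). Tnfrsf19, also known as Troy, a receptor of the TNF receptor family and a Wnt target in several tissues, was the other member of the Wnt target list that rose. It measured 7.6, 6.93 and 6.96 FPKM in control and 11.1, 11.2 and 9.65 FPKM with both stimuli, without overlap, for a log2 fold change of 0.56 (SE 0.0880, adjusted p = 0.00684, limma).

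The 250 bases upstream of the start of Axin2 are shown because they hold TCF/LEF-type letters, together with the same window of Tnfrsf19, which rose and holds none, and of Cxcl12, which fell and holds a match. The sequences are from RefSeq on the rat build GRCr8 and read 5′ to 3′ on the strand of the gene. Capitals mark CTTTGAT or its variant CTTTGAA on either strand, and in Axin2 also GTAAACA on the opposite strand, the core of forkhead motifs. The windows are chr10:94398535-94398784 (plus strand) for Axin2, chr15:39334567-39334816 (minus strand) for Tnfrsf19 and chr4:152060531-152060780 (plus strand) for Cxcl12.
Axin2: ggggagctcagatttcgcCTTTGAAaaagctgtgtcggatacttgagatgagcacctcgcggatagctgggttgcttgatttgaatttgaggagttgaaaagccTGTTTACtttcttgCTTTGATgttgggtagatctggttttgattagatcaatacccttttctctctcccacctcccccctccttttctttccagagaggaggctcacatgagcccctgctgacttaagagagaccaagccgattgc
Tnfrsf19: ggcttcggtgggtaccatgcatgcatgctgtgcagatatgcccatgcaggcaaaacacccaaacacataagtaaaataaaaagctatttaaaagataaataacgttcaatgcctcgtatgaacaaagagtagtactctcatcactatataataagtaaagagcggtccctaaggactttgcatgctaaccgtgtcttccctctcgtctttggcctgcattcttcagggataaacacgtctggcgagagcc
Cxcl12: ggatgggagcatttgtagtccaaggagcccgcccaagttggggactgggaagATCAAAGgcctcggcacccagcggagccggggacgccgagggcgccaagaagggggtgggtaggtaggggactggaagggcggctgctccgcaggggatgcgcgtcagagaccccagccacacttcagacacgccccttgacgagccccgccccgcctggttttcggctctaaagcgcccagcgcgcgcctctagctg

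Beyond these examples, promoter windows of 300 bases, 250 before and 50 after the start, were matched by gene ID for 30 of the 36 genes that rose, 48 of the 59 that fell and 9363 of the 11451 tested. TCF/LEF letters, which are CTTTGAT or its variant CTTTGAA, were found in 2 of the 30 windows (6.67%), those of Axin2 and Pvr, and in 4 of the 48 (8.33%), those of Cxcl12, Eno3, Glul and Pdlim5. The share over all windows of tested genes was 5.58%, and 8.64% over all 27457 promoters of the table. The Axin2 window held 2 matches, starting 232 and 132 bases before the start site. Metal response letters, which are TGCACNC or its variant TGCGCNC with N for any base, were found in 36.7% of the windows of genes that rose and 33.3% of those that fell, against 36.1% of tested genes and 25% of all promoters. The forkhead core GTAAACA was in 6.67% and 2.08% of these windows, against 2.31% of tested genes and 3.76% of all promoters, and the cAMP response letters TGACGTCA in 0 and 2.08%, against 3.36% and 1.91%. Both strands were searched. A match describes letters only and is not a binding site.

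The rest of the Wnt machinery held few calls. Of 50 Wnt feedback and target genes on the list, 22 were tested, and besides Axin2 and Tnfrsf19 none was called. These 2 were 9.09% of the list, beside 0.83% of all genes tested. At an unadjusted p under 0.05, 3 members were higher and 3 lower (27.3%, beside 13.5% of all genes tested). The median log2 fold change of the 22, of which 11 were positive and 11 negative, was 0.00181, beside 0.00396 over all genes tested. It turned negative after centring. Ccnd1, which encodes cyclin D1, measured 358, 385 and 366 FPKM in control and 382, 417 and 399 FPKM with both stimuli, overlapping groups with a log2 difference of 0.11 (adjusted p = 0.248, limma). Myc showed −0.07 (adjusted p = 0.503, limma), and Tcf7, a TCF family factor at about 1 FPKM, showed 0.26 with a wide error (SE 0.151, adjusted p = 0.484, limma). Lef1, Lgr5 and Nkd1, targets in other tissues, were below the FPKM minimum. Lef1 had 0 to 10 reads per control library and 0 to 2 with both stimuli. Nkd1 had at most 4 reads and Lgr5 at most 6 in any library, so no change could be measured in them at this depth.

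Among the 14 tested Wnt receptors and co-receptors 0 were called by limma and 1 by voom. At an unadjusted p under 0.05 there were 1 positive and 2 negative differences (21.4%, beside 13.5% of all genes tested). Fzd4 had the smallest p of these, with 3.39 FPKM in control and 2.76 FPKM with both stimuli (log2 difference −0.29, adjusted p = 0.155, limma). Of the 21 tested genes of β-catenin, the destruction complex and the TCF factors and co-repressors, 0 were called by limma and 0 by voom. An unadjusted p under 0.05 was reached by 2 of them (9.52%). Ctnnb1, the β-catenin gene, stood at 178, 175 and 178 FPKM in control and 175, 176 and 176 FPKM with both stimuli (log2 difference −0.01, SE 0.0228). Gsk3b, the kinase of the complex, differed by −0.08 (adjusted p = 0.405, limma). The KEGG Wnt signaling pathway held 99 tested genes, of which Axin2 was the only gene called by limma and 3 genes were called by voom.

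Of the 36 genes that rose, 5 that encode transcription factors are given together, a group made after the values were seen. Klf5, a Krüppel-like zinc finger factor, had the smallest p of all the rises. It measured 8.6, 8.42 and 8.86 FPKM in control and 12.8, 12.4 and 13.1 FPKM with both stimuli, a log2 fold change of 0.56 (SE 0.0459, adjusted p = 9.29e-05, limma). Isl1, a LIM homeobox factor of sensory and motor neurons, measured 11.3, 11.4 and 10.8 FPKM in control and 15.8, 15.6 and 15 FPKM with both stimuli. Neither of these genes overlapped between the groups, and Isl1 rose by 0.46 (SE 0.0727, adjusted p = 0.00684, limma). Irx3, an Iroquois homeobox factor, rose from 21.2, 20 and 19.2 FPKM to 27.1, 26.9 and 28.2 FPKM, without overlap, by 0.44 (SE 0.0425, adjusted p = 0.000206, limma). Its levels with menthol alone (21.2, 22.2 and 22.6 FPKM) and Wnt3a alone (23.3, 22.9 and 23.9 FPKM) were both below every library with both stimuli. The related Irx5, noticed after its values were seen, rose from 13, 13.6 and 13.2 FPKM to 15.6, 16.4 and 15.3 FPKM (0.25, adjusted p = 0.0159, limma). Bhlhe40, a basic helix-loop-helix repressor tied to the circadian clock, rose from 67.0, 67.1 and 64.4 FPKM to 78.1, 76.6 and 74.6 FPKM (0.21, adjusted p = 0.004, limma).

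Crnde, a long non-coding RNA gene that borders Irx5 in GRCr8, measured 17.9, 17.9 and 16.4 FPKM in control and 22.3, 24.4 and 23.9 FPKM with both stimuli. It rose by 0.43 (SE 0.0589, adjusted p = 0.00295, limma), without overlap. The annotated ends of Crnde and Irx5 meet, and the strand setting of the counting is not given in the sources used here, so reads at that border cannot be assigned to either gene.

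**Figure D2:**
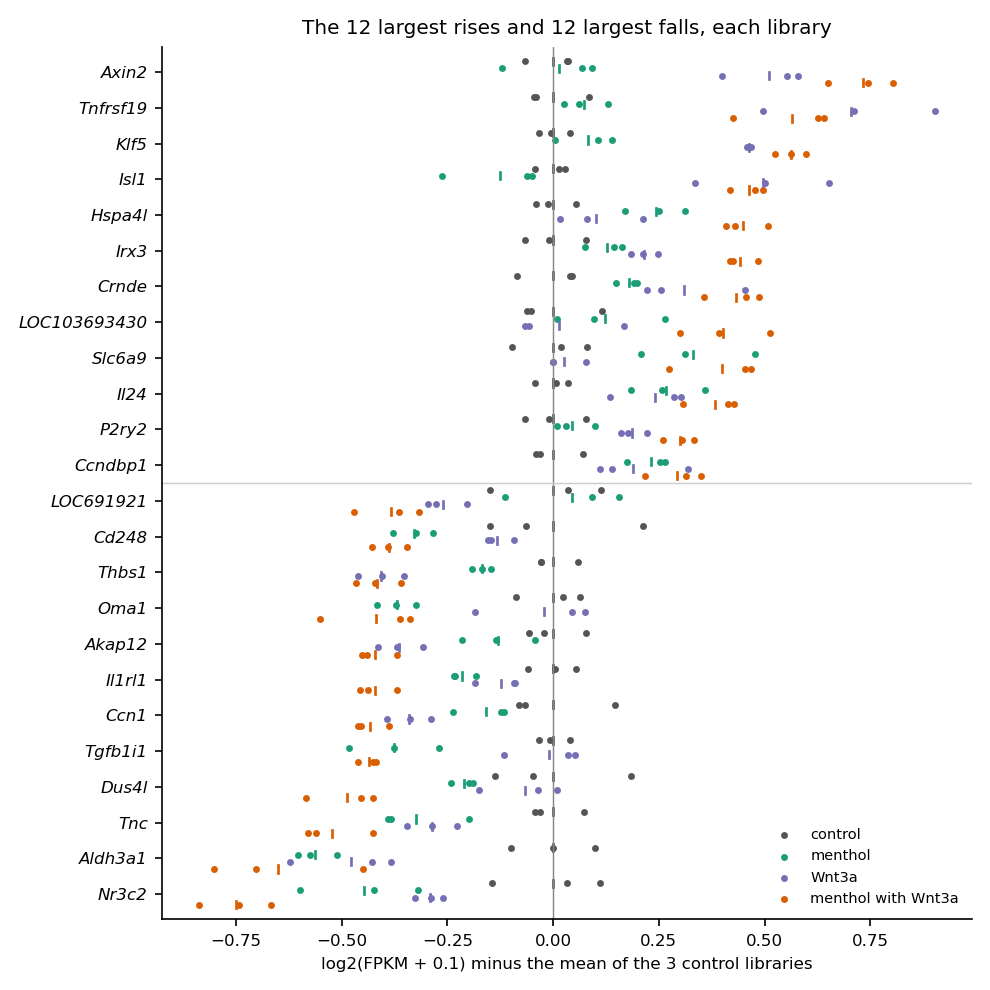
The 12 largest rises and 12 largest falls with both stimuli, with log2(FPKM + 0.1) minus the control mean on the horizontal axis. Points are libraries coloured by group and short lines are group means. The orange points of all 24 genes lie clear of the grey control points, while the green (menthol) and purple (Wnt3a) points take different positions from gene to gene.

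The other large rises covered several functions. Hspa4l, an Hsp110-type chaperone, rose from 9.53, 10.2 and 9.71 FPKM to 13.2, 13 and 14 FPKM (0.45, SE 0.0570, adjusted p = 0.0016, limma). Slc6a9, the glycine transporter GlyT1, rose from 8.63, 9.36 and 9.76 FPKM to 11.2, 12.8 and 12.7 FPKM (0.40, SE 0.0725, adjusted p = 0.0202, limma). Il24, a cytokine of the interleukin-10 family, rose from 8.89, 9.2 and 9.39 FPKM to 12.3, 12.2 and 11.3 FPKM (0.38, SE 0.0592, adjusted p = 0.00684, limma). In none of these did a library with both stimuli reach down to the control range. P2ry2, a receptor for extracellular ATP and UTP, rose from 20.5, 19.3 and 18.6 FPKM to 23.3, 24.5 and 24.1 FPKM (0.30, adjusted p = 0.004, limma). Ccndbp1, which encodes a cyclin D1-binding protein, rose by 0.29 (adjusted p = 0.0443, limma), and the uncharacterised LOC103693430 by 0.40 (adjusted p = 0.0403, limma). Among highly expressed genes, Ier3, an early response gene, rose from 315, 314 and 320 FPKM to 372, 366 and 363 FPKM (0.21, adjusted p = 0.00871, limma). Bnip3, a mitophagy receptor, rose from 136, 135 and 135 FPKM to 158, 153 and 153 FPKM (0.19, adjusted p = 0.004, limma). Slc16a3, a lactate exporter, rose by 0.17 (adjusted p = 0.0457, limma). LOC684988, listed in the KEGG ribosome pathway, rose by 0.15 (adjusted p = 0.0459, limma), with uncertainty because near-identical copies of ribosomal protein genes can share reads.

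Lists of stress and metabolic genes had positive medians, with few genes past the test. Of 25 tested integrated stress response genes, which are driven by Atf4 when translation initiation is restrained, 1 was called by limma, Slc6a9, and 3 by voom. A positive log2 difference was found in 23 of the 25, an unadjusted p under 0.05 in 17, all positive, and the median was 0.11. The 17 were 68% of the list, beside 6.74% of all genes tested that were higher at this p. The called gene was 4% of the list, beside 0.83% of all genes tested. Psat1 and Phgdh, enzymes of serine synthesis, had 53.4 and 8.04 FPKM in control and 63.7 and 9.67 FPKM with both stimuli, and missed the test (adjusted p = 0.0719 and 0.122, limma). The median of this list was 0.11 with menthol alone and 0.02 with Wnt3a alone, comparisons that use the same control libraries. Of 25 tested NRF2 antioxidant genes 0 were called by limma and 1 by voom, and the median was 0.07. An unadjusted p under 0.05 was found in 9, all positive (36%, beside the same 6.74%). Of 21 tested heat shock chaperones, Hspa4l was called by limma and 2 genes by voom, and the median was 0.01, which turned negative after centring. Among 25 tested glycolysis genes Slc16a3 rose and Eno3 fell by limma, voom called 5 higher and 1 lower, and the median was 0.05. At an unadjusted p under 0.05, 8 were higher and 1 lower (36%, beside 13.5% of all genes tested).

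Of the 59 genes that fell, 10 that encode secreted or matrix proteins were grouped after the values were seen. Tnc, which encodes the matrix glycoprotein tenascin C, fell from 105, 98.1 and 97.4 FPKM to 74.6, 67.9 and 67.1 FPKM, by 0.52 on the log2 scale (SE 0.0554, adjusted p = 0.000386, limma). Thbs1, thrombospondin 1, a matrix protein that activates TGF-β, fell from 819, 771 and 771 FPKM to 588, 613 and 569 FPKM (−0.42, SE 0.0359, adjusted p = 9.29e-05, limma). The groups were far apart in both genes. Ccn1, a matricellular protein and a target of YAP, fell from 34.4, 29.3 and 29.7 FPKM to 23.7, 22.7 and 22.5 FPKM (−0.43, SE 0.0567, adjusted p = 0.00206, limma). Col1a2, a chain of type I collagen, fell from 126, 123 and 119 FPKM to 110 FPKM in each library with both stimuli (−0.16, adjusted p = 0.02, limma). Cxcl12, the chemokine whose promoter window is printed above, fell from 92.6, 91.3 and 89.1 FPKM to 81.9, 77.7 and 72.9 FPKM (−0.23, adjusted p = 0.0359, limma). Cd248, a surface glycoprotein of stromal cells, fell from 5.33, 4.38 and 4.13 FPKM to 3.48, 3.38 and 3.59 FPKM (−0.39, adjusted p = 0.0477, limma). The group of 10 held Tnc, Thbs1, Ccn1 and Col1a2 with Angptl2, Efemp2, Ogn, Pcolce, Serpine2 and Timp2, and its members were 8.15 to 30.4% lower.

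Nuclear receptor and enzyme genes gave the largest falls by fold. Nr3c2, the mineralocorticoid receptor, fell from 1.56, 1.78 and 1.88 FPKM to 1.06, 0.999 and 0.929 FPKM (−0.75, SE 0.112, adjusted p = 0.00559, limma). Aldh3a1, an aldehyde dehydrogenase, fell from 35.6, 33.2 and 31.0 FPKM to 24.3, 19.0 and 20.4 FPKM (−0.65, SE 0.0823, adjusted p = 0.0016, limma). Neither gene had overlapping groups, and Nr3c2 lay low in the expressed range. Il1rl1, the receptor for interleukin-33, fell from 137, 143 and 148 FPKM to 104, 110 and 105 FPKM (−0.42, SE 0.0371, adjusted p = 9.29e-05, limma). Oma1, a stress-activated protease of the mitochondrial inner membrane, fell from 6.92, 6.73 and 6.22 FPKM to 5.12, 4.48 and 5.21 FPKM (−0.42, SE 0.0790, adjusted p = 0.0261, limma). Dus4l, a tRNA dihydrouridine synthase, fell by 0.49 on the log2 scale (adjusted p = 0.0361, limma), and the uncharacterised LOC691921 by 0.38 (adjusted p = 0.0422, limma). Cat, catalase, fell from 78.5, 78.4 and 76.6 FPKM to 64.0, 71.0 and 67.7 FPKM (−0.21, adjusted p = 0.0169, limma). Eno3, a muscle-type enolase, fell from 23.8, 23.7 and 25.4 FPKM to 19.4, 21.4 and 20.9 FPKM (−0.24, adjusted p = 0.02, limma).

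Some of the 59 genes that fell encode proteins of actin filaments or of their anchoring to adhesions. Actb, β-actin, the most abundant called gene, fell from 2960, 2910 and 2960 FPKM to 2670, 2520 and 2510 FPKM (−0.20, SE 0.0338, adjusted p = 0.0137, limma). Actn1, α-actinin, which cross-links actin, fell from 66.2, 64.3 and 65.6 FPKM to 56.9, 54.9 and 54.5 FPKM (−0.24, SE 0.0297, adjusted p = 0.00155, limma). The control and stimulated libraries of both genes stood well apart. Vcl, vinculin, which links integrins to actin, fell from 124, 123 and 117 FPKM to 105, 106 and 100 FPKM (−0.23, adjusted p = 0.00481, limma). Flna, filamin A, fell from 178, 177 and 173 FPKM to 154, 147 and 146 FPKM (−0.24, adjusted p = 0.00684, limma). Tgfb1i1, also called Hic-5, an adaptor of focal adhesions, showed the largest fall of this kind, from 35.9, 34.1 and 34.7 FPKM to 26.0, 25.3 and 26.0 FPKM (−0.44, SE 0.0534, adjusted p = 0.00135, limma). Akap12, a scaffold that binds protein kinase A and associates with the cell cortex, fell from 83.1, 75.6 and 77.5 FPKM to 60.9, 57.5 and 58.0 FPKM (−0.42, SE 0.0473, adjusted p = 0.000673, limma). Cnn2, a calponin, fell by 0.19 on the log2 scale (adjusted p = 0.00559, limma), and Enah, which promotes actin filament growth, by 0.18 (adjusted p = 0.0403, limma). A group of 14 actin genes assembled after the values were seen, which adds Actr3, Cald1, Fhl1, Lima1, Myh9, Pdlim5 and Wdr1 to the genes above other than Akap12, was 7.91 to 26.1% lower.

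**Figure D3:**
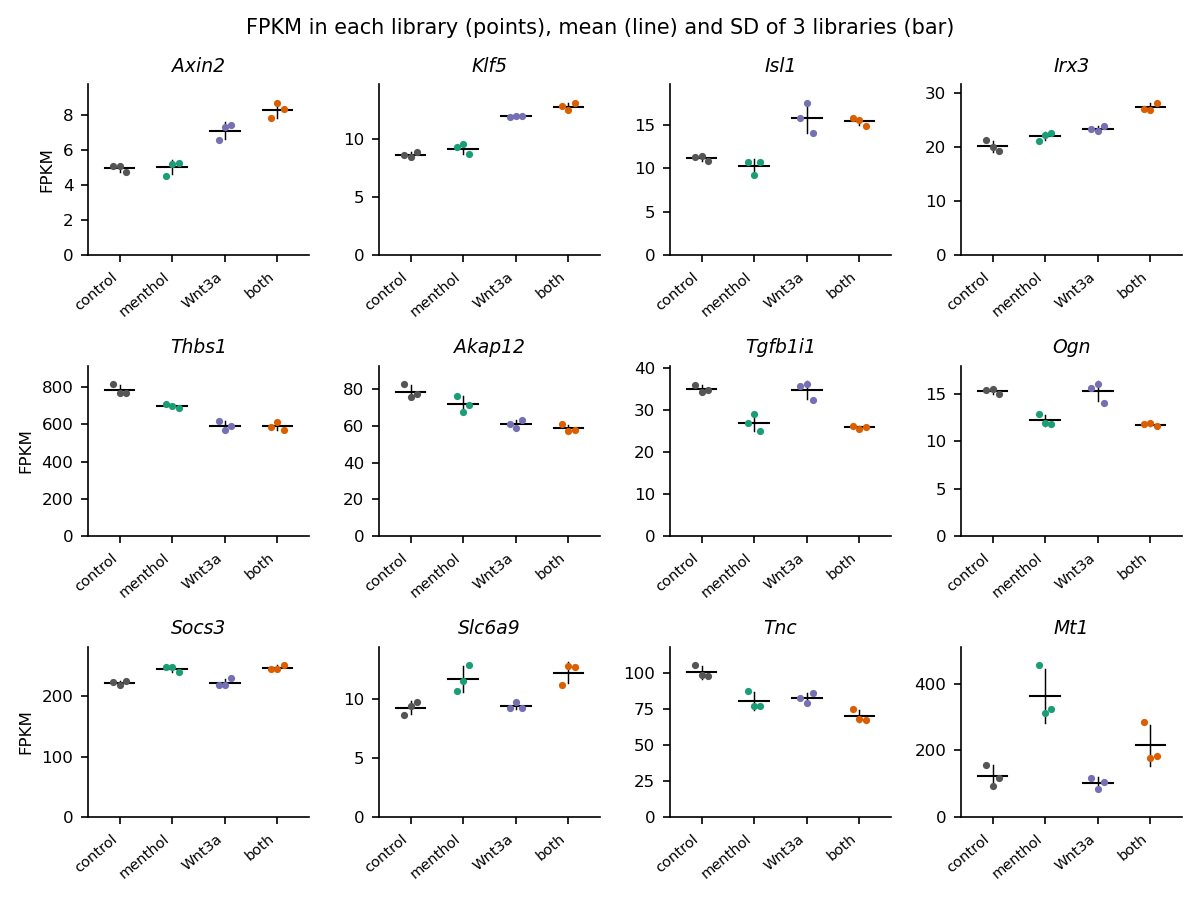
FPKM of 12 genes in each of the 12 libraries, with points for libraries, horizontal lines for the mean and vertical bars for the SD of 3 libraries. The vertical axes start at 0. The upper rows hold genes that rose or fell with both stimuli, and the panels differ in whether the menthol or the Wnt3a libraries lie with the libraries given both stimuli, while Mt1 was highest with menthol alone.

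Part of these falls came from gene lists of adhesion and mechanical signaling. Of 25 tested genes responsive to YAP, SRF or TGF-β, 4 fell (Ccn1, Cnn2, Thbs1 and Vcl) and 0 rose, that is 16% called against 0.83% of all genes tested, and the median was −0.08. Tagln and Ankrd1, other members, had 4.17 and 4.58 FPKM in control and 2.47 and 3.58 FPKM with both stimuli, and narrowly missed the test (adjusted p = 0.0572 and 0.0531, limma). The KEGG focal adhesion pathway had 138 tested genes, of which 7 fell (Actb, Actn1, Col1a2, Flna, Thbs1, Tnc and Vcl) and 0 rose. Its median was −0.03, and 28 of its genes had a negative difference at an unadjusted p under 0.05 against 2 with a positive one. The 28 were 20.3% of the pathway, beside 6.76% of all genes tested, and the 7 called were 5.07%, beside 0.83%. In the KEGG pathway of extracellular matrix receptors 3 of 41 tested genes fell (7.32%). In the KEGG pathway of actin cytoskeleton regulation, added after the values were seen, 7 of 148 fell (4.73%). The latter list had 62 positive and 86 negative differences and a median of −0.02. Of 32 tested collagens, laminins and integrins, Col1a2 was called by limma and 4 genes, all lower, by voom, and the median was −0.09. A negative difference was found in 27 (84.4%, beside 48.1% of all genes tested).

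The lists of cell cycle, sterol synthesis and cytokine genes had negative medians with few calls, while that of Myc, D cyclins and CDK inhibitors had 10 of 16 differences positive and a median of 0.02. In the 46 tested genes of the cell cycle and DNA replication, 0 were called by limma and 4 by voom, and the median was −0.11. At an unadjusted p under 0.05, 18 were lower (39.1%, beside 6.76% of all genes tested) and 1 was higher. Of the 46 differences 39 were negative (84.8%, beside 48.1% of all genes tested). Mcm6, a subunit of the replicative helicase, stood just outside the threshold with 50.5 FPKM in control and 43.3 FPKM with both stimuli (−0.22, adjusted p = 0.0506, limma). The broader KEGG cell cycle pathway, with 118 tested genes, 0 calls by limma and 4 by voom, had a median of −0.01 and 13 negative against 4 positive differences at an unadjusted p under 0.05. Its shares, 11% lower at this p and 55.1% negative, were nearer those of all genes tested. Of 26 tested sterol synthesis genes 0 were called by limma or voom, 24 were negative (92.3%), and the median was −0.06. An unadjusted p under 0.05 was found in 6 of the 24, or 23.1% of the list. Cytokines and chemokines, with 21 tested genes, held Cxcl12 as a call by limma and 2 lower calls by voom, and had a median of −0.14. At an unadjusted p under 0.05 there were 7 negative (33.3%, beside the same 6.76%) and 2 positive differences.

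**Figure D4:**
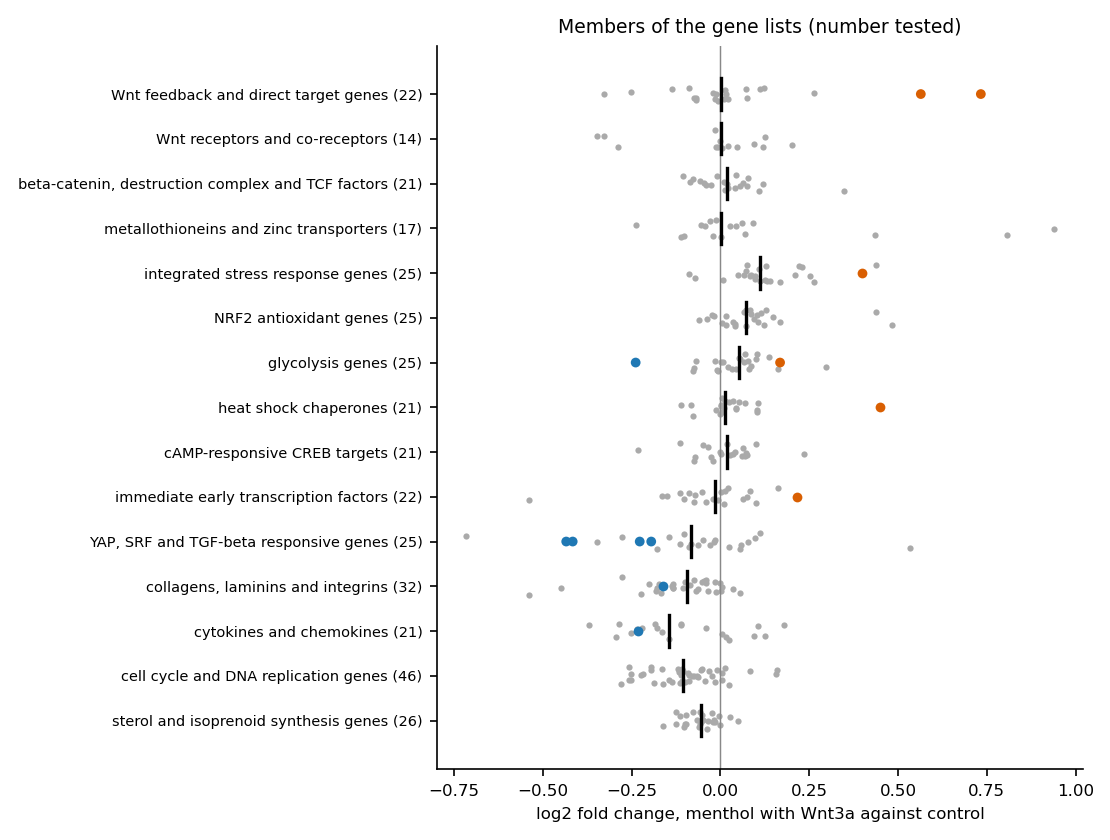
Log2 fold change of each tested member of 15 gene lists with both stimuli against control, 1 point per gene. Black bars are list medians, orange points genes called higher and blue points genes called lower. The medians of the integrated stress response and NRF2 lists lie at 0.11 and 0.07, and those of the cytokine and cell cycle lists at −0.14 and −0.11.

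Pathways tied to cAMP and calcium held few calls. Since 0.83% of all genes tested were called, few or none arise in lists of this size. Of 14 tested protein kinase A subunits and anchors Akap12 was called by limma and 1 gene by voom, and the catalytic subunit gene Prkaca differed by 0.01 (adjusted p = 0.929, limma). In 21 tested CREB-responsive genes 0 were called by limma or voom, with 2 positive and 1 negative difference at an unadjusted p under 0.05 (14.3%). The KEGG cAMP pathway had 0 calls by limma among 92 tested genes, and the KEGG calcium pathway 0 among 84. Voom gave 3 calls in each, beside 261 among all 11451 genes. An unadjusted p under 0.05 was reached by 12 cAMP genes (13%), 4 higher and 8 lower, beside 13.5% of all genes tested. In the calcium pathway 9 genes reached it, all lower (10.7%, beside 6.76% of all genes tested that were lower at this p). Trpm8, the menthol receptor gene, was below the FPKM minimum with 61, 67 and 88 reads in the control libraries and 77, 90 and 97 with both stimuli, and its level was 0.189 to 0.307 FPKM in the 12 libraries. The BMP (7 tested genes), Hedgehog (5), Notch (10), nucleolar (46) and axon guidance (33) lists had 0 calls by limma. So had the list of Myc, D cyclins and CDK inhibitors (16). In that order 28.6%, 40%, 10%, 6.52%, 15.2% and 6.25% had an unadjusted p under 0.05, beside 13.5% of all genes tested. Voom called 1 BMP gene, 2 Hedgehog genes and 1 axon guidance gene.

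The single stimuli were set beside the joint response to see where each called gene stood. Menthol alone gave 2 genes higher (0.0175%) and 10 lower (0.0873%) against control, and Wnt3a alone 26 higher (0.227%) and 24 lower (0.21%). These comparisons share the control libraries with the joint one. Of the 36 genes that rose with both stimuli, 10 were also called with Wnt3a alone, 0 with menthol alone and 26 with neither. Of the 59 that fell, 7 were called with Wnt3a alone, 6 with menthol alone, 3 with each stimulus (Actn1, Aldh3a1 and Tnc) and 43 with neither. The counts for the single stimuli moved widely. Beside 50 genes for Wnt3a alone there were 6 to 291 when a library was left out, with 291 without replicate 3 of Wnt3a, and 303 by voom, and beside 12 genes for menthol alone there were 0 to 10 and 60 by voom. The counts of genes called with neither stimulus rest on these calls, and whether the joint response of those genes differed from that of a single stimulus is not shown by them. The 36 genes had a median of 0.11 with menthol and 0.16 with Wnt3a, and the 59 genes medians of −0.14 and −0.13.

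The contrast of Wnt3a alone with menthol alone used libraries outside the joint comparison, but took the spread of each gene from the same fit. The contrast called 68 genes higher with Wnt3a (0.594%) and 46 higher with menthol (0.402%). Among the 36 genes that rose with both stimuli, 6 were higher with Wnt3a than with menthol (Axin2, Isl1, Klf5, Slc4a7, Tmem158 and Tnfrsf19) and 2 were higher with menthol (Oga and Socs3). Isl1 had 15.8, 17.6 and 14.1 FPKM with Wnt3a and 10.7, 9.28 and 10.8 FPKM with menthol, a difference of 0.62 (adjusted p = 0.00143, limma). Tnfrsf19 differed by 0.63 (adjusted p = 0.0048), Axin2 by 0.50 (adjusted p = 0.00641) and Klf5 by 0.38 (adjusted p = 0.00185, limma for all). Socs3, which encodes a suppressor of cytokine signaling, went the other way with 218, 219 and 230 FPKM under Wnt3a and 248, 249 and 240 FPKM under menthol (−0.14, adjusted p = 0.0295, limma). Its libraries with both stimuli, at 244, 245 and 252 FPKM, overlapped those of menthol alone. Slc4a7, Tmem158, Oga and Socs3 were singled out after their values were seen.

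Among the 59 genes that fell, 5 were lower with menthol than with Wnt3a (Clic5, Eno3, Ogn, Pcolce and Tgfb1i1) and 2 were lower with Wnt3a (Akap12 and Thbs1). Tgfb1i1 measured 26.9, 28.9 and 24.9 FPKM with menthol and 35.7, 36.2 and 32.2 FPKM with Wnt3a, where the latter overlapped control (difference 0.37, adjusted p = 0.00641, limma). Ogn, a small leucine-rich proteoglycan of the matrix, had 12.9, 11.9 and 11.8 FPKM with menthol and 15.7, 16.1 and 14.1 FPKM with Wnt3a (0.32, adjusted p = 0.0134, limma). The libraries with both stimuli, at 11.8, 11.9 and 11.6 FPKM, lay with those of menthol. Thbs1 was the opposite case, with 711, 700 and 689 FPKM under menthol and 616, 571 and 594 FPKM under Wnt3a (−0.24, adjusted p = 0.00705, limma). Akap12 differed the same way by −0.23 (adjusted p = 0.0347, limma). Ogn, Clic5 and Pcolce were likewise chosen after their values were seen. In all, 20 of the 36 and 24 of the 59 genes had an unadjusted p under 0.05 in this contrast. These were 55.6% and 40.7%, beside 16.2% of all genes tested. The same estimate of spread entered the selection of these genes and this contrast. Genes called for a small spread reach a low p more readily here too, so the shares are not independent of the selection. How much of the difference came from this was not tested.

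**Figure D5:**
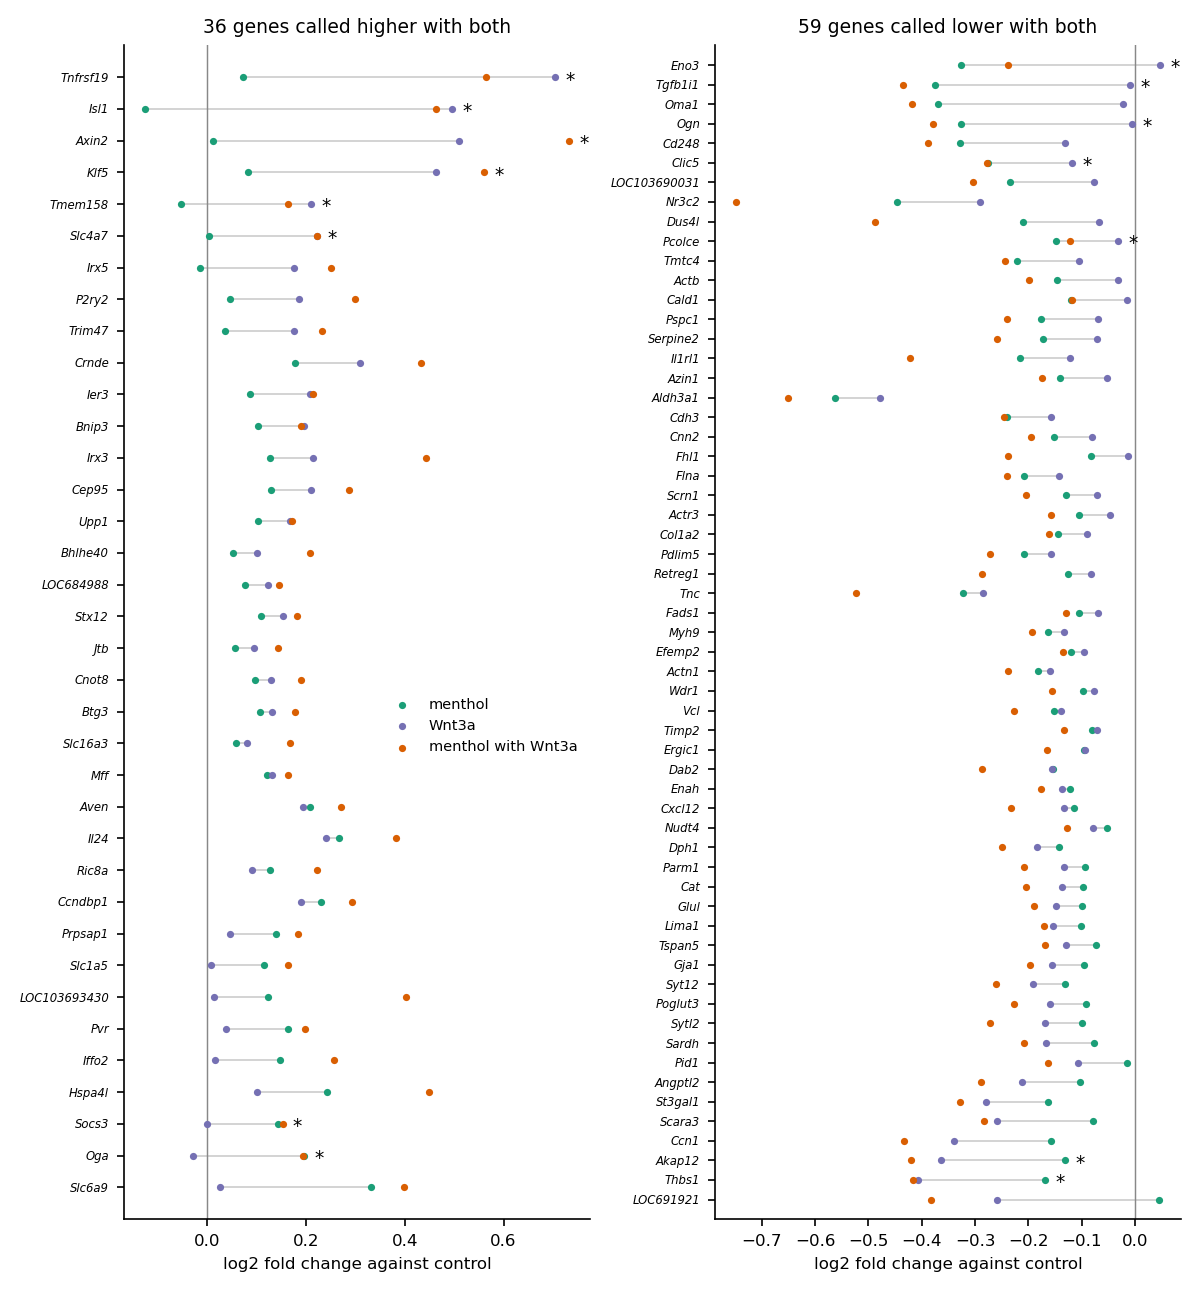
Log2 fold change against control of the 36 genes called higher (left) and the 59 called lower (right), with menthol alone in green, Wnt3a alone in purple and both in orange, ordered by the difference between the single stimuli. The 3 comparisons share the control libraries. An asterisk marks the 8 genes on the left and the 7 on the right whose Wnt3a and menthol libraries differed at an adjusted p under 0.05 (limma).

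Adding the other stimulus was tested directly against each single stimulus. Cells with both stimuli against Wnt3a alone gave 0 genes higher (0%) and 6 lower (0.0524%) by limma, of which Eno3, Il1rl1, Ogn and Tgfb1i1 belonged to the 59, while voom called 93 higher and 50 lower. An unadjusted p under 0.05 was reached by 1660 genes in that contrast. Il1rl1 had 133, 134 and 125 FPKM with Wnt3a alone, and the libraries with both stimuli were lower by 0.30 on average (adjusted p = 0.00963, limma). Cells with both stimuli against menthol alone gave 9 genes higher (0.0786%) and 2 lower (0.0175%). Axin2, Irx3, Irx5, Isl1, Klf5, P2ry2 and Tmem158 of the genes that rose were higher, and Akap12 and Thbs1 were lower.

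Departure from additivity was tested as the interaction, the joint change minus the sum of the single changes on the log2 scale. No gene passed in either direction (0%, by limma and by voom), while 800 genes had an unadjusted p under 0.05 (6.99%). Of the 36 genes that rose, 2 had an unadjusted p under 0.05. Of the 59 that fell, 5 did, and the interaction was positive in those 5 and in 44 of the 59, or 74.6% against 50.5% of all genes tested. A positive sign here means that the joint fall was smaller than the sum of the single falls. Aldh3a1 was 23.3, 22.3 and 21.8 FPKM with menthol and 24.7, 25.4 and 21.6 FPKM with Wnt3a, overlapping its levels with both stimuli (interaction 0.39, unadjusted p = 0.00486, limma). Thbs1 had an interaction of 0.16 (unadjusted p = 0.00744, limma). For Axin2 the interaction was 0.21 (unadjusted p = 0.058, limma). The libraries of control and of both stimuli enter the selection and the interaction, and at equal spread their errors cancel between these contrasts. The sign counts were not tested, and all genes were measured in the same libraries, so their signs are not independent of each other.

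The smallest adjusted p for the interaction belonged to Fbxo32, a muscle-atrophy ubiquitin ligase and FoxO target. It was near the FPKM minimum, with 0.807, 0.873 and 0.934 FPKM in control, 0.422, 0.373 and 0.37 FPKM with menthol, 0.395, 0.386 and 0.324 FPKM with Wnt3a and 0.525, 0.905 and 0.824 FPKM with both stimuli. Each single stimulus gave values below all control libraries, and the cells with both overlapped control, with an interaction of 1.83 (SE 0.265, adjusted p = 0.0956, limma). Against control, both stimuli differed by −0.22 (adjusted p = 0.667, limma). Among 23 tested FoxO factors and targets Bnip3 rose and Cat fell.

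The metallothioneins, small metal-binding proteins, had the largest positive log2 difference among genes averaging over 10 FPKM, in Mt1, without passing the test in the fit without a block. Mt1 measured 158, 93.1 and 117 FPKM in control and 287, 176 and 182 FPKM with both stimuli, without overlap (0.81, SE 0.212, adjusted p = 0.105, limma). Replicate 1 was the highest library of each of the 4 groups for Mt1 and for Mt2A. With a replicate block the adjusted p for Mt1 was 0.000384, and by voom 0.00446, so its call depends on the fit. With menthol alone the gene reached 458, 313 and 324 FPKM, and with Wnt3a alone 117, 83.1 and 106 FPKM. The menthol libraries exceeded control by 1.59 on the log2 scale (adjusted p = 0.0135, limma), and cells with both stimuli were below menthol alone by 0.78, which did not pass the adjusted test (unadjusted p = 0.00267, adjusted p = 0.364, limma). Mt2A had the same order, with 790, 568 and 659 FPKM in control and 1190, 745 and 828 FPKM with both stimuli, overlapping groups (0.44, adjusted p = 0.265, limma). Its adjusted p was 0.0108 with the replicate block and 0.0558 by voom. Of 17 tested metallothioneins and zinc transporters 0 were called by limma and 1 by voom. At an unadjusted p under 0.05 there were 4 positive and 1 negative difference (29.4%, beside 13.5% of all genes tested). Gli3, a Hedgehog pathway factor that fell with Wnt3a alone by 0.32 on the log2 scale, showed −0.18 with both stimuli (adjusted p = 0.18, limma).

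The labelled origin of the line was checked against marker genes. Of 38 sensory and general neuron markers in the table, 6 were tested, 32 were below the FPKM minimum and 10 had no more than 3 reads in any library. Scn10a, a sodium channel gene of nociceptors, had at most 1 read, and the general neuron markers Tubb3 and Stmn2 at most 6 and 7, while Uchl1 and Map2 were present. Since the line holds mouse as well as rat chromosomes and the annotation was that of rat, how reads of mouse transcripts were assigned is not given in the sources used here. Fibroblast and mesenchymal markers summed to 2200 to 2210 FPKM in control and 2060 to 2160 FPKM with both stimuli, and 14 of the 17 were tested, with Col1a2 called by limma and 3 genes, all lower, by voom. Vim, the main contributor with 916 FPKM in control, had 836 FPKM with both stimuli. The sum of sensory neuron markers was 44.7 to 46.5 FPKM in control and 48.3 to 49.8 FPKM with both stimuli, and 2 tested genes made up most of it, Isl1 (11.2 and 15.4 FPKM) and Runx1 (33.7 and 32.5 FPKM), so the higher sum is that of Isl1. The sum of general neuron markers was 110 to 117 and 114 to 126 FPKM. Schwann and glial markers summed to 47.3 to 50.4 and 47.5 to 51.4 FPKM, neuroblast markers to 17.7 to 18.3 and 15.4 to 16.6 FPKM, and muscle, leukocyte and endothelial or epithelial markers stayed at or below 13.5 FPKM in both groups. The part of the mesenchymal marker difference in the falls of matrix and actin genes was not tested. In bulk RNA, fewer cells of a kind and less RNA per cell cannot be told apart.

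The calls were also examined with single libraries left out. Of the 95 genes, 35 passed in all 6 fits that left out 1 control library or 1 library with both stimuli, and all 95 kept their direction. Axin2, Klf5, Irx3, Hspa4l, Isl1, Tnfrsf19, Crnde, Il24, P2ry2, Nr3c2, Aldh3a1, Tnc, Tgfb1i1, Ccn1, Il1rl1, Akap12 and Thbs1 were among the 29 that passed under every alternative tried. The remaining largest rises and falls, Slc6a9, LOC103693430, Ccndbp1, Dus4l, Oma1, Cd248 and LOC691921, lost the call in 3 to 5 of the 6 fits. Without replicate 1 of control 44 genes passed, without replicate 2 of control 51, without replicate 3 of control 46, and without replicate 2 or 3 of the cells with both stimuli 41 or 46, beside 95 with all libraries. Just outside the threshold stood Dusp3 (−0.29) and Mcm6 (−0.22), each at an adjusted p of 0.0506 (limma).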

How the data were processed

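RNA of ND7/23 cells was measured in 12 libraries, 3 per group, with group and replicate taken from the sample labels. Per the methods and the submitters' processing notes, the authors filtered reads with fastp, aligned them with HISAT to mRatBN7.2, counted them with HTSeq, used R 3.2.0 and DESeq2 for their own comparisons, and deposited FPKM values of 21556 genes, 1 column per library. The remaining tool versions are not given in the sources used here. FPKM is scaled to the library total, so a rise of abundant genes lowers all others. Columns without a sample numbered 0. Each FPKM was a whole multiple of the value of 1 read, which gave whole reads for 21556 genes (100%, relative tolerance 1e-06). For 1804 genes above 0 in 1 library only this rests on 1 value.

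Values were tested as log2(FPKM + 0.1) with limma 3.58.1 under R 4.3.3. The fit held genes averaging at least 0.5 FPKM, 4 groups together, a variance trend and Benjamini-Hochberg adjustment over 11451 genes. Fold changes are on that scale and understate the change of low genes. The script was tested on simulated data. Named genes were the 12 largest rises and 12 largest falls among called genes without overlap, every called member of a list, and 15 fixed genes. Other names were chosen after their values were seen. The compared genes and the gene lists were chosen with earlier results of these data known. Alternatives were pseudocounts of 0.01 and 1, other FPKM minimums, centring on the library median, fits of the compared groups alone, a replicate block, no variance trend, limma voom on the recovered reads, and leaving out each library. Promoter windows were read from RefSeq sequences of GRCr8, without converting coordinates, in Python 3.11.15 with numpy 2.4.6, and plots used matplotlib 3.10.9. Some genes are not reported here.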

Additional observations from a re-analysis of the deposited data

How the results depend on the processing

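Both stimuli against control gave 95 called genes, and 95 or 96 with a pseudocount of 0.01 or 1, 101 at a mean of at least 1 FPKM and 99 after centring. The count was 60 with no FPKM minimum, 49 with the compared groups alone, 40 with no variance trend and 261 with limma voom on the recovered reads (99 higher, 162 lower), and 89 of the 95 were among the 261. Leaving out libraries gave 41 to 100 genes, and 0 to 1 past 2-fold. In the other comparisons, no FPKM minimum gave 2 genes for menthol, 9 for Wnt3a, 0 for both against Wnt3a, 2 for both against menthol, 1 for the interaction and 55 for Wnt3a against menthol. Centring gave 5 for both against menthol. The compared groups alone gave 3, 17, 0, 4 and 22 in the same order without the interaction, no variance trend 0, 2, 0, 2 and 38, and voom 60, 303, 143, 33 and 392. Leaving out libraries gave 0 to 10 for menthol, 6 to 291 for Wnt3a, 0 to 38 for both against Wnt3a, 3 to 7 for both against menthol, 0 to 1 for the interaction and 27 to 233 for Wnt3a against menthol. The highest counts of 291, 38 and 233 came without replicate 3 of Wnt3a. With the replicate block, both stimuli gave 115 genes (41 higher, 74 lower, 82 of them among the 95), menthol 21 and both against Wnt3a 24. The block also brought calls for Mt1 (adjusted p = 0.000384) and Mt2A (adjusted p = 0.0108). Same-numbered libraries of control and both stimuli did not deviate together (r −0.0174, 0.0105 and −0.0487), and over the 6 pairs of groups r was −0.0551 to 0.153 and in 0 pairs above 0.1 for every number, so the numbers were not taken to pair the samples. Among named genes, only Prkaca changed sign, to −0.00293 without replicate 3 of control and −0.00032 without replicate 3 of both stimuli (highest value 0.0345, without replicate 1 of control), and the cause was not tested. Groups did not overlap in 2344 genes, in 2238 at 1 FPKM or more and in 3016 with no minimum. Depth limits genes near 3 reads, which is 0.0773 to 0.0813 FPKM for a gene of 1 kb, by counting error only.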

Other observations

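A few genes below the FPKM minimum, and so outside the test, had more reads in every library with both stimuli than in any control library. They were chosen after their values were seen, by at least 20 reads in each library with both stimuli and more than 2.5 times the reads of every control library, and no test was run on them. Snap25, a synaptic vesicle fusion protein of neurons, had 12, 27 and 19 reads in the control libraries and 74, 71 and 81 in those with both stimuli, while menthol alone gave 8, 36 and 26 and Wnt3a alone 31, 51 and 47. Mbp, a myelin protein gene, had 10, 1 and 4 reads in control and 35, 43 and 50 with both stimuli, with 16, 38 and 47 under Wnt3a alone. Aplp1, a neuronal relative of the amyloid precursor protein, had 7, 3 and 4 reads in control and 23, 20 and 27 with both stimuli. Other neuronal and neuroblast markers below the minimum went both ways. Summed over 3 libraries, Nefm and Gap43 each had 2 reads in control and 22 with both stimuli. Also higher were Nefl (6 and 24), Syt1 (8 and 29), Rbfox3 (2 and 16), Elavl3 (5 and 17), Prph (4 and 13), Trpv1 (64 and 75), Th (1 and 9) and Calca (0 and 6). P2rx3 had 118 reads in control and 85 with both stimuli, Avil 178 and 150, Dcx 21 and 11, and Dbh 13 and 4. Also lower were Gata2 (10 and 5), Ntrk3 (15 and 9) and Trpa1 (4 and 0), while Syn1 had 45 and 47. In Mbp, replicates 2 and 3 of Wnt3a alone had more reads than its replicate 1. The genes chosen by the read rule lie at mean levels of 0.123 to 0.462 FPKM. Single reads weigh heavily there and in the other markers below the minimum.

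The KEGG pathways of the ribosome and of oxidative phosphorylation had positive medians with both stimuli, 0.05 over 159 tested genes and 0.03 over 124. At an unadjusted p under 0.05, 26 ribosome genes were higher and 4 lower, and 11 oxidative phosphorylation genes were higher and 3 lower, with 1 and 0 calls by limma and 3 and 0 by limma voom. These counts made up 18.9% of the ribosome and 11.3% of the oxidative phosphorylation genes tested, beside 13.5% of all genes tested, which had 772 higher and 774 lower. The ribosome median was 0.03 with menthol alone and 0.11 with Wnt3a alone, comparisons that share the control libraries. Genes with a log2 difference beyond 2-fold existed among low genes without being called. Spink4, at 0.276 FPKM in control and 0.728 FPKM with both stimuli, differed by 1.29 (SE 0.494, adjusted p = 0.26, limma), and Camk2n1, at 0.509 and 1.26 FPKM, by 1.16 (SE 0.562, adjusted p = 0.393, limma).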
